A study of Rattus norvegicus with 4 samples.

Results

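The genes described here encode 10 neuropeptide precursors of the hippocampus: Npy, Sst, Vip, Cck, Penk, Pdyn, Tac1, Nts, Cort and Gal. They were chosen by function, and a probe was assigned to a gene where its accession resolved to the gene's symbol in the RefSeq table of the GRCr8 assembly. Probes were found for 8 of the 10 genes, as 9 of the 41012 probes on a rat whole-genome oligo array, and no accession resolved to Vip or Nts, which are not analysed here. Male Wistar rats, 10 weeks old and individually housed, were kept without a wheel (sedentary, 10 rats), with a freely turning wheel (WR, 8 rats) or with a wheel whose resistance was raised to 30% of body weight (RWR, 8 rats) for 4 weeks. RNA of the replicates of each group was pooled in equal amounts before labelling. The amounts given in the methods come to 3 replicates per pool, and whether a replicate was a single rat is not stated there. The sedentary and WR pools were hybridized to chips 1 and 2 (Sed × WR) and the sedentary and RWR pools to chips 3 and 4 (Sed × RWR), and the Cy3 and Cy5 dyes were exchanged on the second chip of each pair. All 4 chips were on the same slide.

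Neuropeptides are cut from larger precursors by convertases in the regulated secretory pathway, stored in dense-core vesicles and released mainly under strong or repetitive firing, after which they act on G-protein-coupled receptors. In the hippocampus most of them come from local circuits: Npy, Sst, Cort, Vip, Cck and Tac1 are transcribed in subsets of GABAergic interneurons, Pdyn in dentate granule cells and Penk in granule cells and some interneurons. Galanin of the hippocampus is known largely from the fibres of noradrenergic and septal cholinergic neurons, whose cell bodies lie outside it, so that its local transcript is scarce. Several of these genes are classical targets of the cAMP response element binding protein, which binds the cAMP response element (CRE) of their promoters.

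Promoter windows of 250 bases before the annotated start were read from the RefSeq promoters of GRCr8, which hold 8 of the 10 genes (Vip, Gal, Pdyn, Tac1, Npy, Cort, Nts and Sst). Those of Gal, Pdyn and Cort are shown because, of the genes with an entry, these had ratios of the same sign on both chips of each pair. They are written 5′ to 3′ in the direction of transcription, with TGACG or CGTCA (the short form of the CRE on either strand) and TATAAA or TTTATA (the TATA box on either strand) in capitals.
Gal, GRCr8 chr1:210084573-210084822, - strand: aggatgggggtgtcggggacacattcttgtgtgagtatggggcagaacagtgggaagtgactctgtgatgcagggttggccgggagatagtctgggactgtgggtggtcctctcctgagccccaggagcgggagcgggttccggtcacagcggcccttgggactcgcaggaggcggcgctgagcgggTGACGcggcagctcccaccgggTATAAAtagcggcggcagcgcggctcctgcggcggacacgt
Pdyn, GRCr8 chr3:137366504-137366753, - strand: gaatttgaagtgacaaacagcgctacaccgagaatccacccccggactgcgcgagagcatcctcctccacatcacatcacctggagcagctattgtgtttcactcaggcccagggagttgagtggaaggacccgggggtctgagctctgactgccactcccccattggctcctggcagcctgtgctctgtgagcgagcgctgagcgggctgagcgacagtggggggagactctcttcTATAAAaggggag
Cort, GRCr8 chr5:164845125-164845374, - strand: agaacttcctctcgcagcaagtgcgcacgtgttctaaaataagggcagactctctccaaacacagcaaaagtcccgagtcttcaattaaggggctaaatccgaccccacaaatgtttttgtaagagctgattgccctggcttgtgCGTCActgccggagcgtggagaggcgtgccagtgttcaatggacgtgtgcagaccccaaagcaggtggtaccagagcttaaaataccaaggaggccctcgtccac
In Gal, TGACG starts 63 bases and TATAAA 41 bases before the start site. In Pdyn, TATAAA starts 13 bases before it and the short CRE letters do not occur in this window. In Cort, CGTCA starts 105 bases before it. The short CRE was found in 5 of the 8 windows (Vip, Gal, Tac1, Cort and Nts) and in 18.2% of all 33469 promoter windows of the same length, and the TATA letters in 3 of the 8 (Vip, Gal and Pdyn) and in 12.9% of all windows. The full palindrome TGACGTCA, which contains both forms of the short CRE, was in 0 of the 8 and in 1.59% of all. Only the 250 bases before the annotated start were searched. Letters at or beyond that start, or further upstream, were not counted, so a gene without a match here may have one nearby. A match of letters describes these windows and is not a measured binding site.

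Each value below is a log2 ratio of running over sedentary, turned to the same direction on every chip, or a spot's signal after background subtraction and dye normalization. The chips of a pair measured the same pools with the dyes exchanged, so they are technical repeats of 1 biological sample per group. The conditions can therefore not be tested against each other, and the spread given is that between chips and spots, not between rats. Much of a ratio turned with the dyes: over all probes, the ratios of chips 1 and 2 correlated at Pearson's r of -0.761 and those of chips 3 and 4 at -0.686, whereas chips of the same dye orientation correlated at 0.712 (chips 1 and 3) and 0.700 (chips 2 and 4). These correlations run across probes of the same pools and only describe the chips. The part of the ratio that follows the dye cancels in the mean of a pair. From the difference of that dye part between both pairs, the measurement noise of a pair mean had an SD of 0.084 over the 24955 probes that were well above background in all 8 dye channels, and of 0.046 over the 197 of them printed 10 times. Gal, Npy, Sst, Tac1 and Cck were printed 10 times, and 0 to 4 of the genes' spots per chip were left out as outliers. All 8 genes had a probe well above background in every dye channel, and 0 of the 9 probes were saturated.

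Of the hippocampal neuron markers in a fixed list of 10, only Neurod2, Wfs1 and Grik4 had a named probe, and all 3 were well above background in all 8 dye channels. Of 13 interneuron markers, 10 had a named probe, and 9 of these were well above background in all 8 channels. In bulk tissue, fewer cells that transcribe a gene and less RNA per cell cannot be told apart.

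None of the 8 genes passed a strict selection built on the study's thresholds, more than 1.5-fold or less than 0.75-fold with p under 0.01 in the chip's error model, both required here on each chip of a pair. The count was 0 of 8 in Sed × WR, where 0.0317% of all probes were selected, and 0 of 8 in Sed × RWR, where 0.0585% were. Without the p-value filter it was also 0 of 8 in both. For a gene with several spots on a chip, the p-value given here and below is the median over its spots. The smallest p-values of the error model were 0.0158 for Npy on chip 3, 0.0416 for Gal on chip 1 and 0.0429 for Pdyn on chip 4, each on 1 chip of its pair. The median over the 8 genes was -0.02 in Sed × WR and 0.12 in Sed × RWR on the log2 scale, with medians over all probes of 0.0049 and -0.0019. The range ran from -0.39 (Gal) to 0.17 (Penk) in Sed × WR and from -0.27 (Pdyn) to 0.24 (Npy) in Sed × RWR.

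A ratio with the same sign on both chips is larger than its dye part. In Sed × WR, Penk and Cort (2 of 8) were higher on both chips, which 14.4% of the 25495 probes well above background were, and Pdyn and Gal (2 of 8) were lower on both, against 13.8%. In Sed × RWR, Penk, Cort and Gal (3 of 8) were higher on both chips against 16.6% of 26924 probes, and Pdyn (1 of 8) was lower on both against 15.4%. Npy, Sst, Tac1 and Cck changed sign with the dyes in both comparisons. The plot of ratios by chip shows all 4 values of each gene.

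**Figure D1:**
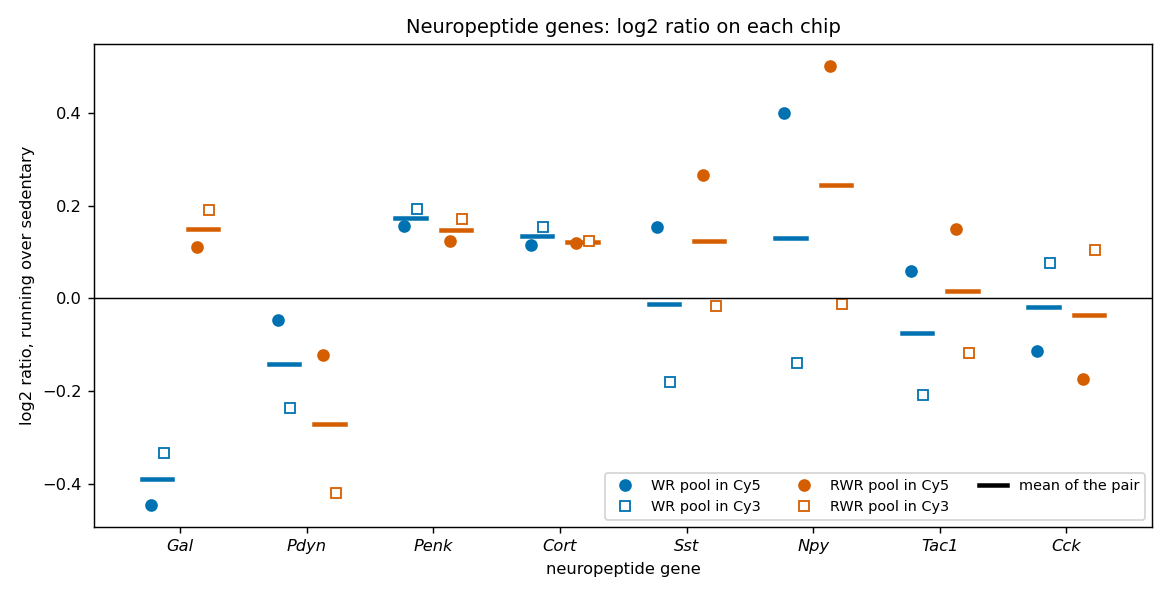
Log2 ratio of running over sedentary (y axis) for the 8 neuropeptide genes (x axis) on each chip, with WR in blue, RWR in orange, filled circles where the running pool was in Cy5, open squares where it was in Cy3, and a bar at the mean of the pair. Gal lies below 0 on both WR chips (-0.45 and -0.33) and above 0 on both RWR chips (0.11 and 0.19), Penk and Cort lie above 0 and Pdyn below 0 on all 4 chips, and the other genes change sign with the dye.

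Gal, the precursor of galanin, had the largest ratio of the 8 genes in Sed × WR and the opposite sign in Sed × RWR. Its normalised signal was 641 (chip 1, Cy3) and 564 (chip 2, Cy5) in the sedentary pool and 471 and 447 in the WR pool of the same chips. On the RWR pair it was 691 (chip 3, Cy3) and 560 (chip 4, Cy5) in the sedentary pool and 747 and 638 in the RWR pool. Both WR signals were below all 4 sedentary signals, and on each of chips 3 and 4 the RWR signal was above the sedentary signal of that chip.

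The log2 ratio of Gal was -0.45 on chip 1 and -0.33 on chip 2, a mean of -0.39, or -23.7% in WR. It was 0.11 on chip 3 and 0.19 on chip 4, a mean of 0.15, or 11.0% higher in RWR. The error models gave p-values of 0.0416 and 0.103 for the WR chips and of 0.582 and 0.369 for the RWR chips. Within a comparison the sign was the same in every spot: all 10 spots lay below 0 on each WR chip, from -0.54 to -0.37 on chip 1 and from -0.37 to -0.28 on chip 2, and all 10 lay above 0 on each RWR chip, from 0.08 to 0.15 on chip 3 and from 0.16 to 0.22 on chip 4. Of the probes well above background, 0.275% had a lower mean ratio than Gal in Sed × WR, and 8.21% had one at least as high in Sed × RWR.

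A marker of the choroid plexus, Ttr, and a marker of the thalamus, Prkcd, had the same signs as Gal on all 4 chips. Of 8 listed choroid plexus markers, 6 had a named probe and 2 (Ttr and Folr1) were well above background on all 8 channels, whereas Kl, Kcne2 and Prlr were so on 0 channels and Clic6 on 3. The summed signal of the 6 probes, after Aquantile normalization between chips, was 597 to 658 in the sedentary, 344 to 408 in the WR and 677 to 691 in the RWR channels. Ttr, which encodes transthyretin, the main secreted protein of the choroid plexus, had ratios of -0.72 and -0.99 on the WR chips and of 0.20 and 0.04 on the RWR chips. Of the choroid plexus list, only Ttr passed the strict selection, and only in Sed × WR. Folr1, a folate receptor of that epithelium, had ratios of -0.07 and -0.36 on the WR chips and of -0.15 and 0.26 on the RWR chips. Prkcd, a kinase listed as a thalamus marker, had ratios of -0.04 and -0.21 on the WR chips and of 0.30 and 0.18 on the RWR chips. The other thalamus markers well above background differed from it: Slc17a6, a vesicular glutamate transporter, had ratios of -0.10 and -0.07 on the WR chips and of -0.04 and -0.03 on the RWR chips, and Tnnt1, a troponin, had 0.83 and -0.02, and 0.53 and 0.16. The summed signal of the 4 named thalamus probes was 1387 to 1445 in the sedentary, 1305 to 1412 in the WR and 1450 to 1543 in the RWR channels. The part of these tissues in the ratio of Gal was not tested.

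**Figure D2:**
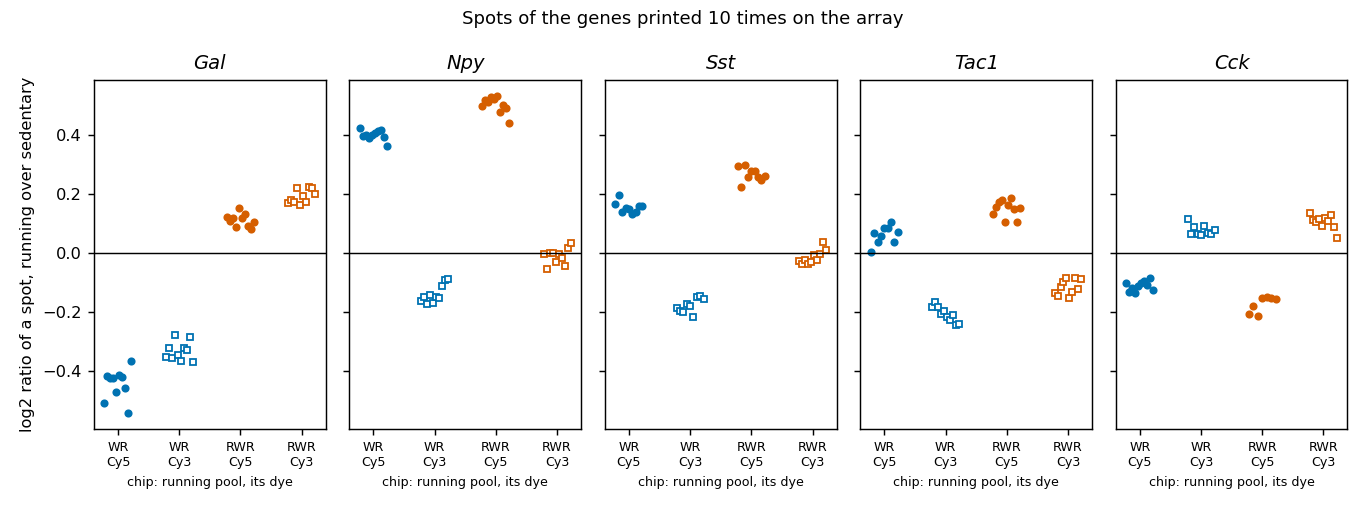
Log2 ratio of single spots (y axis) on the 4 chips (x axis, by running pool and its dye) for the 5 genes printed 10 times, after outlier spots were left out. The spots of a gene on a chip lie close together, Gal is below 0 in all WR spots and above 0 in all RWR spots, and Npy, Sst, Tac1 and Cck move with the dye.

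Of the opioid precursors, only Pdyn and Penk are among the genes described here. Their mean ratios, for Penk that of its brighter probe, had opposite signs in both comparisons, from 1 spot per chip each. Pdyn encodes prodynorphin, the source of dynorphins that act on kappa opioid receptors. Its normalised signal in the sedentary pool was 4837, 4757, 5141 and 4772 on chips 1 to 4, against 4680 and 4039 in WR on chips 1 and 2 and 4721 and 3566 in RWR on chips 3 and 4. The running signal was the lower of the 2 on every chip. The log2 ratios were -0.05 and -0.24 in Sed × WR (mean -0.14) and -0.12 and -0.42 in Sed × RWR (mean -0.27, or -17.2%). The error models gave p-values of 0.815 and 0.250 on the WR chips and of 0.547 and 0.0429 on the RWR chips. On both pairs the chip with running RNA in Cy3 gave the lower ratio, and Pdyn had 1 spot per chip, so no spread between spots can be given. A lower mean than that of Pdyn was found for 5.86% of probes in Sed × WR and 1.27% in Sed × RWR.

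Penk encodes proenkephalin, the source of enkephalins that act on delta and mu receptors. The signal of its brighter probe in the sedentary pool was 897, 863, 1019 and 822 on chips 1 to 4, against 999 and 987 in WR and 1110 and 925 in RWR. The running signal was the higher on every chip, by log2 ratios of 0.16 and 0.19 in Sed × WR (mean 0.17, or 12.8% higher) and 0.12 and 0.17 in Sed × RWR (mean 0.15, or 10.7% higher). The p-values of the error model lay between 0.346 and 0.546. A mean at least as high was found for 4.65% of probes in Sed × WR and 8.57% in Sed × RWR. The second Penk probe disagreed: its signals lay between 6.04 and 24.4, it was well above background in 3 of 8 channels, and its ratios were 0.18 and -1.36 on the WR chips and 0.31 and -0.58 on the RWR chips, which gives no direction.

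Somatostatin and the related cortistatin bind the same family of receptors. Cort encodes cortistatin, which is named for its expression in cortex. Its signal in the sedentary pool was 1843, 1703, 1948 and 1635 on chips 1 to 4, against 1996 and 1895 in WR and 2118 and 1783 in RWR, so that the running signal was the higher on every chip. Its log2 ratios were nearly alike on all chips, 0.12 and 0.15 in Sed × WR (mean 0.13, or 9.78% higher) and 0.12 and 0.12 in Sed × RWR (mean 0.12, or 8.86% higher). The p-values of the error model lay between 0.452 and 0.573, and Cort had 1 spot per chip.

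Sst encodes somatostatin, a marker of dendrite-targeting interneurons. Its log2 ratios were 0.15 and -0.18 in Sed × WR (mean -0.01) and 0.27 and -0.02 in Sed × RWR (mean 0.12). All 9 spots used on chip 1 were above 0 and all 9 on chip 2 below it. On chip 3 all 9 were above 0, and on chip 4 the count was 2 above and 8 below. The dye part of Sst was 0.17 in the WR pair and 0.14 in the RWR pair. With the dye part of the other pair taken off, which leaves the means as they are, the ratios were 0.01 and -0.04 on the WR chips and 0.10 and 0.15 on the RWR chips. Both values of a pair then differ from its mean only by the difference of the dye parts. Their shared sign on the RWR chips therefore restates the mean and is not a result of each chip.

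Npy encodes neuropeptide Y, an inhibitor of glutamate release. Its normalised signal in the sedentary pool was 8811, 9334, 8862 and 9265 on chips 1 to 4, against 11619 and 8472 in WR and 12545 and 9193 in RWR. The running signal was clearly the higher where the running pool was in Cy5 and not where it was in Cy3. The log2 ratios were 0.40 and -0.14 in Sed × WR (mean 0.13) and 0.50 and -0.01 in Sed × RWR (mean 0.24, or 18.5% higher), and the p-values of the error model were 0.0548 and 0.461, and 0.0158 and 0.938. The dye part of Npy was 0.27 in the WR pair and 0.26 in the RWR pair, close to equal in both. With the dye part of the other pair taken off, the ratios of Npy were 0.14 and 0.12 on the WR chips and 0.23 and 0.26 on the RWR chips. As for Sst, these values restate the means of the pairs and are not separate results of each chip. A mean at least as high as that of Npy was found for 8.50% of probes in Sed × WR and 2.44% in Sed × RWR. Its mean was thus above 0 in both comparisons, although the sign of the uncorrected ratio depended on the dye.

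Tac1 encodes the precursor of substance P and neurokinin A. Its log2 ratios were 0.06 and -0.21 in Sed × WR (mean -0.07) and 0.15 and -0.12 in Sed × RWR (mean 0.02). Cck encodes cholecystokinin, which marks a class of perisomatic interneurons and is also transcribed in pyramidal cells. Its dye part ran the other way, with log2 ratios of -0.11 and 0.08 in Sed × WR (mean -0.02) and -0.17 and 0.10 in Sed × RWR (mean -0.04). With the dye part of the other pair taken off, Tac1 was at -0.07 and -0.08 on the WR chips and at 0.02 and 0.02 on the RWR chips, and Cck changed sign in both pairs (0.03 and -0.06, and -0.08 and 0.01).

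The levels of the genes in the 3 pools were compared after Aquantile normalization. It brings the average intensities of the 4 chips to a common scale and leaves the ratio of both dyes on each chip as it was. The sedentary pool was measured in 4 channels and each running pool in 2, always in both dyes. Gal was at a log2 signal of 9.26 ± 0.06 (SD, n = 4 channels) in the sedentary pool, 8.89 ± 0.01 (n = 2) in WR and 9.39 ± 0.01 (n = 2) in RWR, so that the order was WR, sedentary, RWR with no overlap. Pdyn had the order RWR (11.97 ± 0.13), WR (12.13 ± 0.07) and sedentary (12.25 ± 0.06), but its lowest sedentary channel (a signal of 4644) was next to its highest WR channel (4632). Cort had the order sedentary (10.79 ± 0.05), RWR (10.88 ± 0.03) and WR (10.96 ± 0.02), with the lowest RWR channel (10.86) close to the highest sedentary one (10.84). The sedentary channels of Cort also differed between the pairs, with 10.84 and 10.82 on chips 1 and 2 and 10.78 and 10.74 on chips 3 and 4, so that the levels give no order of WR and RWR for Cort. For Pdyn the highest RWR channel (12.06) was next to the lowest WR channel (12.07).

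The brighter Penk probe was at 9.81 ± 0.05 in sedentary, 10.00 ± 0.05 in WR and 9.94 ± 0.04 in RWR, where both running pools were above all sedentary channels but overlapped with each other. Channels did not overlap between WR and sedentary for Gal, Pdyn, Cort and Penk (4 of 8) against 11.0% of the 24955 probes, and between RWR and sedentary for the same 4 genes against 12.4%. A running pool can lie apart from sedentary only where the ratio has the same sign on both chips of the pair. These are the same 4 genes that had it, so the gap is not a separate result. Between RWR and WR the channels did not overlap for Gal, Pdyn and Cort (3 of 8) against 33.7%, close to the background share. Npy, Sst, Tac1 and Cck overlapped in all 3 pairings, and for each of them the Cy5 channels lay on one side of all Cy3 channels, whatever the pool. The channels of a pool share their RNA, and the signals are not adjusted for a probe's own dye preference.

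**Figure D3:**
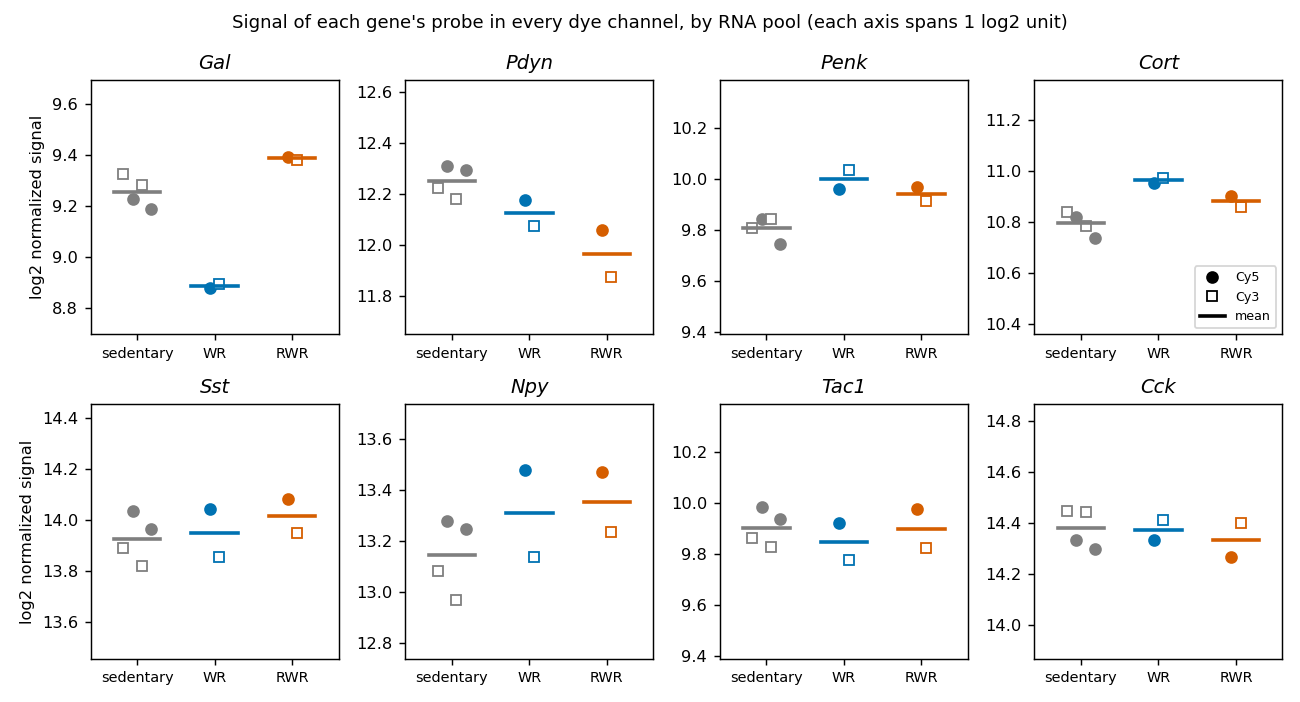
Log2 normalised signal (y axis, spanning 1 log2 unit in each panel) of each gene's brightest probe in the 4 sedentary, 2 WR and 2 RWR channels (x axis), with filled circles for Cy5, open squares for Cy3 and a bar at the mean. The pools are clearly apart for Gal. Those of Pdyn do not overlap but nearly touch, and both running pools are above sedentary for Cort and Penk. The levels give no order of WR and RWR for Cort, whose sedentary channels differ between the pairs. The dyes part the channels of Npy, Sst, Tac1 and Cck.

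RWR was set against WR within each dye orientation (chip 3 minus chip 1 with running RNA in Cy5, chip 4 minus chip 2 with running RNA in Cy3), where a probe's dye part drops out and the sedentary pools of both pairs are taken as alike. Gal differed most of the 8 genes, by 0.56 and 0.52 on the log2 scale (mean 0.54, or 1.45-fold higher in RWR), and 0.116% of probes had a mean at least as high. Npy (0.10 and 0.13), Sst (0.11 and 0.16) and Tac1 (0.09 and 0.09) were also higher in RWR in both orientations. Together with Gal these were 4 of 8 genes, against 28.1% of the 24955 probes.

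Pdyn (-0.08 and -0.18) and Penk (-0.03 and -0.02) were lower in RWR in both orientations (2 of 8), against 28.9% of the probes. Cort (0.01 and -0.03) and Cck (-0.06 and 0.03) changed sign. The noise SD of such a difference was 0.118 over the 24955 probes and 0.065 over the 197 printed 10 times. This is noise of the measurement only and holds no spread between rats.

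**Figure D4:**
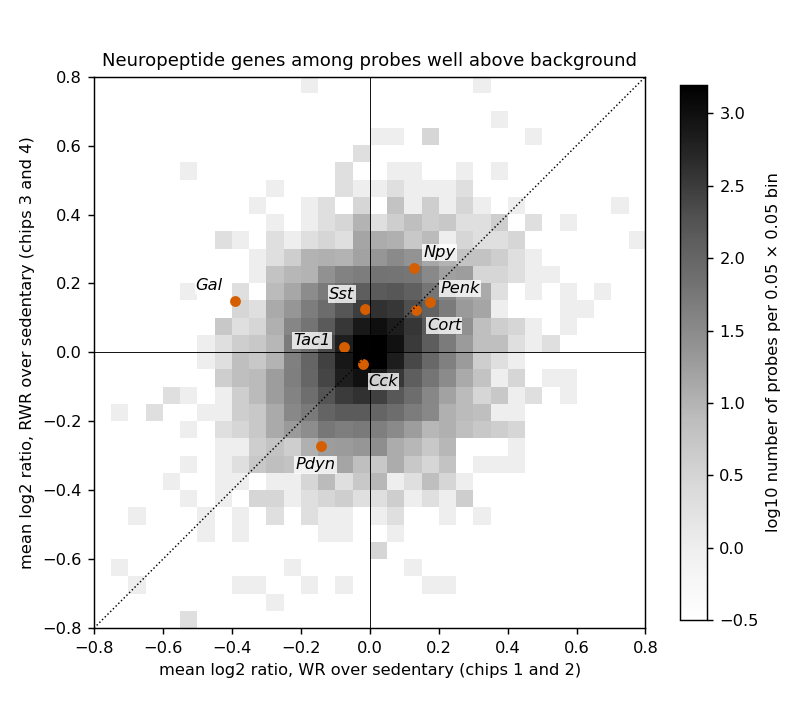
Mean log2 ratio of WR over sedentary (x axis) and of RWR over sedentary (y axis) for the 8 neuropeptide genes (orange), over the number of probes per bin (grey, log10 scale) among the 24955 probes well above background, of which 19 lie outside the axes. The dotted line marks equal ratios; Gal (-0.39 and 0.15) stands apart from the bulk of the probes at the upper left, and both axes use sedentary RNA as the reference.

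Other genes of the peptide systems were taken from fixed lists. Of 23 receptors for these and related peptides, 21 had a named probe, and 2 were higher and 5 lower on both chips of the 14 well above background in Sed × WR, against 4 higher and 5 lower of 15 in Sed × RWR. Over all probes well above background, the shares given above were 14.4% higher and 13.8% lower for the WR pair, and 16.6% higher and 15.4% lower for the RWR pair. The medians of the receptors were -0.03 and 0.01. Of 13 genes for peptide processing and dense-core vesicles, 12 had a named probe and all 12 were well above background. In Sed × WR, 6 of them were higher and 0 lower on both chips (median 0.07), and in Sed × RWR, 2 were higher and 2 lower (median 0.03).

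The genes higher on both chips in Sed × RWR were Pcsk1, a convertase that cuts peptide precursors (0.21 and 0.14), and Vgf, a granin-related secretory protein (0.21 and 0.10), and both were also higher on both chips in Sed × WR, with 0.13 and 0.11 for Pcsk1 and 0.17 and 0.01 for Vgf. The genes of this list that were lower on both chips in Sed × RWR were Cpe (-0.06 and -0.03) and Cadps (-0.04 and -0.04). In Sed × WR, Cpe was at 0.07 and 0.07 and Cadps at -0.05 and 0.08. All of these genes were named after their values had been seen. Of the 9 interneuron markers well above background, 1 was higher and 1 lower in Sed × WR, where 14.4% of all probes were higher and 13.8% lower. In Sed × RWR, 3 were higher and 0 lower, where the shares were 16.6% and 15.4%. The summed signal of the 10 named interneuron probes was 18312 to 18816 in the sedentary, 18804 to 19390 in the WR and 18802 to 19037 in the RWR channels. No gene of the receptor, processing or interneuron lists passed the strict selection on both chips in either comparison.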

How the data were processed

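Hippocampal RNA was measured on 4 chips in 2 colours. The authors processed the scans with Agilent Feature Extraction 11.0.1.1, which subtracted background and normalized the dyes by LOWESS. The deposited signals are spot intensities, the deposited log10 values are Cy5 over Cy3 ratios, and the deposited p-values come from the error model of a single chip. The deposited series matrix also has log10 values, which equal the ratio of both processed signals and are not turned for the dyes. Groups and dyes were taken from the labels.

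Control spots and outlier spots were dropped. Ratios were put on the log2 scale as running over sedentary and averaged over spots, and a gene was represented by its brightest probe. The p-value of a probe with several spots is the median of the spots' p-values, also in the selection. It is not a p-value of the averaged ratio. Accessions were matched without version to RefSeq (10768 probes, 8899 genes). Levels were scaled by the Aquantile method of limma 3.58.1 (R 4.3.3), and all else was computed in Python 3.11.15. The number of chips limits the precision. The conditions were not tested against each other. The selection took the study's fold and p thresholds and required both on each chip of a pair, which is stricter than the study's text. The fold and direction parts of the calling rules were run on simulated data in which the p-value limit was always met. The dye part and noise of that simulation were fixed in advance and not taken from these chips. It therefore does not show how the rules perform on these data. The members and lists were chosen with earlier results of these data known.

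Named in the text are all members with every probe and, of the other lists, genes whose probe was well above background on both chips of a pair in each dye, with the same sign on both and a mean log2 ratio of at least 0.3 in size, or the same for RWR minus WR. Ttr, Trh, Grp, Tnnt1 and Prkcd are named by this rule, and other list genes are named beside the result they belong to, after their values were seen. The lists were peptide receptors, peptide processing, other neuropeptide precursors, interneurons, hippocampal neurons, thalamus, neocortex, hypothalamus, choroid plexus and pituitary. A list of striatum markers is not reported here. Alternatives were loess after normexp (offset 50) or after no background correction, centring on the median, leaving out dim probes, the series matrix values, a gene's median probe value, removal of the dye part measured on the other pair, dropping the p-value filter, and each chip left out.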

Additional observations from a re-analysis of the deposited data

Results flagged for a closer look

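Gal had opposite directions in the 2 running modes, lower on both chips in Sed × WR (mean -0.39) and higher on both chips in Sed × RWR (mean 0.15), a difference of 0.54 on the log2 scale. Ttr of the choroid plexus list had the same pattern with -0.86 and 0.12, a difference of 0.98. Prkcd of the thalamus list had it with -0.13 and 0.24, a difference of 0.37. The other thalamus markers well above background did not have it: Slc17a6 had means of -0.09 and -0.03 and Tnnt1 of 0.41 and 0.35. The pools have no biological replicates, so none of these differences was tested, and all 3 take the sedentary RNA of both pairs as alike.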

How the results depend on the processing

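The selection found 0 of the 8 genes in both comparisons under all alternatives, including each chip alone. With the p-value filter kept, no other count was possible. The filter used the deposited p-values, and the smallest of these genes was 0.0158 in the error model (Npy, Sed × RWR), above the limit of 0.01. These counts are therefore no check of the processing. Only dropping the filter could change the count, and with the fold limits required on both chips of a pair it stayed at 0. On chip 1 alone, Gal (-0.45) was past the fold limit and failed only on the p-value. The median over a gene's probes changed Penk, through its dim second probe: its mean ratio became -0.21 in Sed × WR, RWR minus WR became 0.21, and the median of the 8 genes in Sed × RWR became 0.069. Without one chip of a pair, the median of the 8 genes ranged from -0.16 to 0.09 in Sed × WR and from 0.046 to 0.122 in Sed × RWR. With the dye part of the other pair removed, 6 genes in Sed × WR (Npy and Tac1 in addition) and 7 in Sed × RWR (Npy, Sst and Tac1 in addition) had the same sign on both chips. Both corrected values of a pair differ from its mean only by the difference of the dye parts. The same sign is therefore not an agreement of separate chips. The shares over all 41003 probes were 43.4% and 45.7%. These probes include dim ones, unlike the 8 genes and the shares given for the uncorrected ratios, so they are not a like reference. Gal ranged from -0.39 to -0.32 in Sed × WR, from 0.13 to 0.15 in Sed × RWR and from 0.46 to 0.54 for RWR minus WR over the background and normalization alternatives. The filter and probe alternatives could not change Gal, because its only probe was well above background in every channel. The series matrix holds the same ratios, so it is no separate check either. Pools without replicates, and signals near background for the second Penk probe, limit these values. No paired analysis was possible because no result comes from a test between conditions and each pool is a single sample.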

Other observations

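Of 29 listed precursors of other neuropeptides, 26 had a named probe. In Sed × WR, 3 were higher and 3 lower on both chips of the 18 well above background (median -0.02), where 14.4% of all probes were higher and 13.8% lower, and in Sed × RWR, 7 were higher and 4 lower of 22 (median 0.0035), where the shares were 16.6% and 15.4%. Trh, the precursor of thyrotropin-releasing hormone, had log2 ratios of 0.14 and 0.77 in Sed × RWR (mean 0.45), and 0.79 and 0.93 in Sed × WR, where it was not well above background in every channel. Grp, the precursor of gastrin-releasing peptide, had -0.49 and -0.23 in Sed × RWR (mean -0.36) and -0.41 and -0.09 in Sed × WR (mean -0.25).

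The lists of neighbouring tissues gave these values, to be read beside the shares of all probes given above. Of 4 named thalamus genes, 3 were well above background, with 2 lower in Sed × WR and 2 higher and 1 lower in Sed × RWR, where Tnnt1 had 0.53 and 0.16. Of 2 named neocortex genes, 1 was higher and 1 lower in Sed × WR and 0 had the same sign on both chips in Sed × RWR. Of 6 named hypothalamus genes, 4 were well above background in Sed × WR, with 0 of the same sign on both chips, and 6 in Sed × RWR, with 2 higher and 1 lower. All 6 are also in the list of other neuropeptide precursors, with the same probes, and were counted there too. Of 6 named pituitary genes, 3 were well above background in each comparison, with 1 lower in each. Prl, which encodes prolactin, was well above background in all 4 sedentary channels and in 0 of the 4 running channels, lower on all 4 chips, and passed the strict selection in Sed × RWR. The hippocampal neuron markers Neurod2, Wfs1 and Grik4 were higher on both chips in Sed × WR, by means of 0.07, 0.10 and 0.06, and 1 of the 3, Neurod2, was higher on both in Sed × RWR, with a mean of 0.04 (0.0017 and 0.077). These means are about as large as the noise SD of a pair mean or smaller, which was 0.084 over the probes well above background.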
